A study of Mus musculus with 6 samples.

Results

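The 39 genes described here encode the secreted ligands, latency proteins, receptors, antagonists, Smad proteins and targets of transforming growth factor beta (TGF-beta) and bone morphogenetic protein (BMP) signalling. They were chosen by symbol from the 20018 symbols measured on 6 one-colour Agilent mouse arrays. Transcript accessions gave the probes their symbols, and 1 probe per gene, the one with the highest mean, stood for each member. The arrays compared macrophages differentiated from bone marrow of wild-type (WT) C57BL/6 mice with those of Bach1 knockout (KO) mice. Both genotypes had 3 separate mice, 2 males and 1 female, aged 11 weeks, and all cultures were kept for 5 days with 10% serum and with GM-CSF (granulocyte-macrophage colony-stimulating factor) at 10 ng/mL. The arrays are named WT 1, WT 2 and WT 3, and KO 947, KO 948 and KO 949, of which WT 3 and KO 949 are the females. How the KO allele was made is not stated in the labels.

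TGF-beta is secreted bound to its own propeptide and, through it, to latent TGF-beta binding proteins in the matrix, and it acts once released. TGF-beta and activins act through type II and type I receptor kinases that phosphorylate Smad2 and Smad3, whereas BMPs act mainly through Smad1 and Smad5, and both sets of Smads pair with Smad4 to regulate genes such as Tgfbi and the Id family. In macrophages TGF-beta is known as a restraint on inflammatory activation and as a driver of tissue-specific identity. Bach1 is a transcription repressor that binds Maf recognition elements with small Maf proteins and is released by heme. Its best-known target is Hmox1, the heme-degrading enzyme.

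Levels are log2 processed signals minus the log2 of each array's 75th percentile, so 0 is the level of that percentile, and differences are KO minus WT on the same scale. Between 70.3% and 73.2% of spots were well above background on the WT arrays and between 62.5% and 65.1% on the KO arrays, and every KO array was below every WT array. Bach1 itself had levels of 2.21 to 2.59 in WT mice and of 1.45, 2.00 and 2.23 in KO mice, so the genotypes overlapped (difference -0.54, adjusted p = 0.262). The sources used here do not say where its probe lies relative to the deleted part. Hmox1 read 4.99, 5.83 and 5.08 in WT and 7.40, 7.37 and 7.55 in KO, higher in every KO mouse (difference 2.14, adjusted p = 0.0115). The ferroportin gene Slc40a1, another gene that Bach1 is known to repress, was higher by 1.74 (adjusted p = 0.0280). Macrophage markers (8 of 9 measured) had a summed level of 8.43 to 8.61 in WT and 8.52 to 8.65 in KO. A summed level is the log2 of the summed linear signals, so the strongest markers weigh most. Dendritic cell markers, all 9 of them measured, summed to between 7.96 and 8.17 in WT and between 7.48 and 7.64 in KO, with 5 of 9 past the test and lower in KO. Stromal markers summed to 2.47 to 4.65 in WT, lowest in WT 3, and to -1.12 to 0.56 in KO, with 3 of 8 tested markers past the test and lower in KO. Of the 8, 7 had separate ranges, lower in KO, and Dcn overlapped. Cxcl12, among the 7, was well above background on all WT arrays and no KO array. Dcn was at -0.03 in KO 948, the KO array with the highest stromal sum. Markers of eosinophils, mast cells and basophils summed to 4.66 to 5.78 in WT and to 2.78 to 4.52 in KO. Of 8 tested, Mcpt8, Prss34 and Kit passed the test and were lower. Mcpt8 was well above background on all WT arrays and no KO array, so it was tested through its WT arrays alone. Differences were below 0 for 7 of the 8 and above 0 for Siglecf (0.47, with overlap). Prg2, which did not pass, read 3.51, 4.09 and -0.58 in KO. Neutrophil markers (8 of 9 measured) summed to 7.74 to 7.88 in WT and to 7.27 to 7.42 in KO. S100a9 passed the test and was lower, and 6 of the 8 had a difference below 0. Mmp8 (difference 0.47, separate ranges) and Elane (0.20, with overlap) had higher means in KO and did not pass. The part of these cell types in the members' differences was not tested. The defining stromal marker Lum was not well above background on any array, and Pdgfra was so on 2 WT arrays and no KO array. Since RNA came from bulk cultures, fewer cells of a type and less RNA per cell cannot be told apart.

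Of the 39 members, 37 could be tested and 5 passed the test (13.5% of those tested), beside 537 of 15736 genes (3.41%) over the whole array. The test was limma's two-sided moderated test, and p-values were adjusted by Benjamini-Hochberg over the 15736 genes, with a threshold of 0.05. Bmp2 and Id1 were higher in KO, beside a background of 1.14% of all genes, and Tgfb2, Ltbp2 and Grem1 were lower, beside 2.27%. In 10 of the 37 (27%) the WT and KO ranges were separate, 3 of them with higher and 7 with lower levels in KO, and this share is that of all genes (26.9%). The median difference of the tested members was -0.04 and that of all genes -0.01, while the median size of the difference, regardless of sign, was 0.39 in the members and 0.25 in all genes. Scaling to the array median in place of the 75th percentile moved the median of all differences to 0.21 and the share of calls that were higher in KO from 33.5% to 62.5%, and the same 5 members passed, with Tgfbr2 as a sixth. The first slide held all WT arrays and KO 947, and the other slide held KO 948 and KO 949, so that KO 947 alone sets the contrast once the slide is a block. With that block 0 of the 37 passed with limma and 11 had an unadjusted p under 0.05. The count of members past the test was 1 without WT 1, 0 without WT 2, 5 without WT 3, 3 without KO 947, 0 without KO 948 and 0 without KO 949, and between 8 and 13 members had an unadjusted p under 0.05 in these fits. In the main fit 9 of the 37 members and 3214 of the 15736 genes had an unadjusted p under 0.05. The members' unadjusted counts are to be read beside this share of all genes, which was not computed for the other fits.

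**Figure D1:**
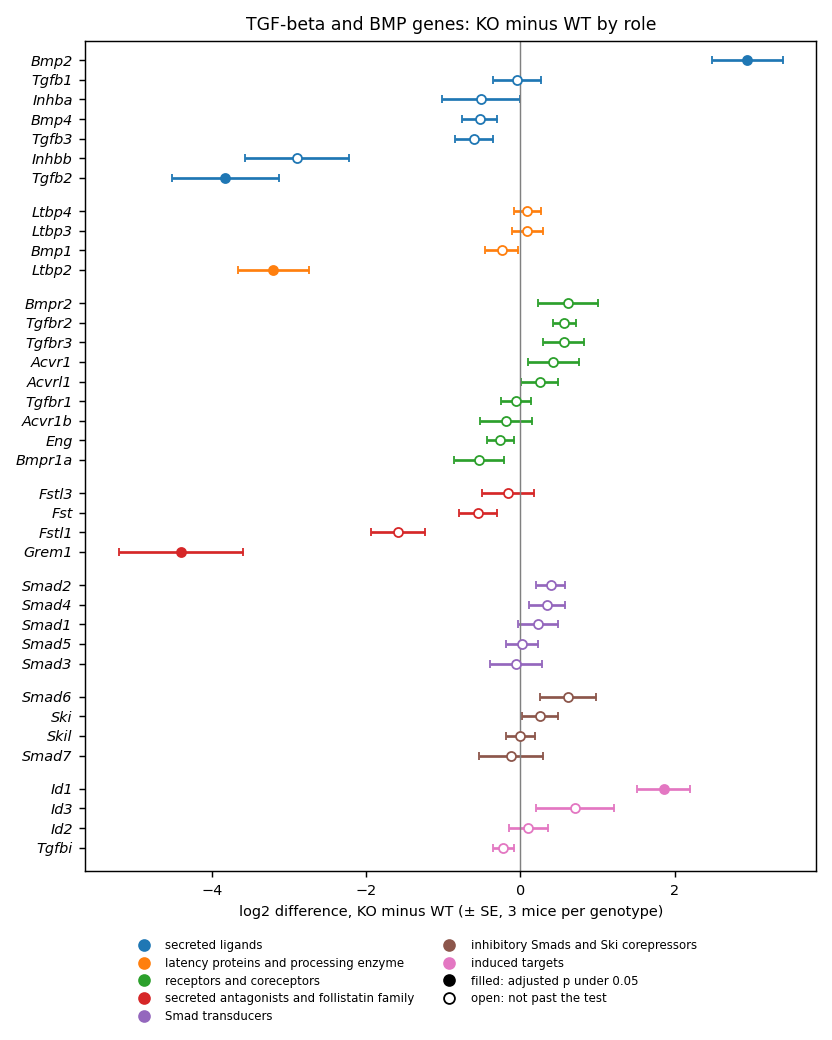
Difference between genotypes (KO minus WT, log2, horizontal axis) for the 37 tested members, grouped by role, with bars of 1 standard error from 3 mice per genotype. Filled points passed the test and open points did not. Bmp2 and Id1 lie to the right at 2.95 and 1.86, and Tgfb2, Ltbp2 and Grem1 lie to the left at -3.83, -3.21 and -4.41, while the receptors and Smads lie between -0.54 and 0.62.

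Promoter sequences were read from RefSeq (GRCm38.p6) for 28 of the 39 members, with 34 start sites. None was available for Bmp2 and Id1, the members that rose, so their promoters were not searched for any motif. The 250 bases before the start are shown for the 3 members that fell, Tgfb2, Ltbp2 and Grem1, because they fell together. Those of Tgfbr2 are shown as well. It did not pass, and was the tested member with separate genotypes whose window holds a Maf recognition core. Each is read 5′ to 3′ on the minus strand, the strand of all 4 genes, at chr1:186705990-186706239 for Tgfb2, chr12:84876492-84876741 for Ltbp2, chr2:113758649-113758898 for Grem1 and chr9:116175364-116175613 for Tgfbr2. Capitals mark matches to TGANNNNGC, the core bound by Bach1 and Nrf2 with small Maf proteins, and to GGCGCC, a BMP-type Smad site.
Tgfb2: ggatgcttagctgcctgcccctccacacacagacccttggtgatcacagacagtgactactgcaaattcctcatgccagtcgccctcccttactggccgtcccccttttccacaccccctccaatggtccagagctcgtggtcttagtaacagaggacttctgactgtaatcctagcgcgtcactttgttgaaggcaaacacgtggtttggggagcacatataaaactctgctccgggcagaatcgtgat
Ltbp2: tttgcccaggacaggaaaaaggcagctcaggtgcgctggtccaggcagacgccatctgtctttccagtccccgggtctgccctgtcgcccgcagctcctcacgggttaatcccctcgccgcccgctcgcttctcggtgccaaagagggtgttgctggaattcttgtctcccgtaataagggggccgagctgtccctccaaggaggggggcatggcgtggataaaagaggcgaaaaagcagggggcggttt
Grem1: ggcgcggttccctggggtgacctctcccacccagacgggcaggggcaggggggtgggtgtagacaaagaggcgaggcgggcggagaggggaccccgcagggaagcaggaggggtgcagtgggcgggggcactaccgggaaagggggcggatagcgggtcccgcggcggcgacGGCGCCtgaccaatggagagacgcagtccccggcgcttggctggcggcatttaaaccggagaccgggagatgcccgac
Tgfbr2: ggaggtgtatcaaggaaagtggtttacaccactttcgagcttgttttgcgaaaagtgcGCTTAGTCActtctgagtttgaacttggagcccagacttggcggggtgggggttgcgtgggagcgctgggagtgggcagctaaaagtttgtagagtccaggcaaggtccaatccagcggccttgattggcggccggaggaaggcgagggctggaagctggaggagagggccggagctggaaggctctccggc
Tgfbr2 held 1 match to TGANNNNGC, at -192 from the start on the opposite strand, and Grem1 held 1 match to GGCGCC at -78. The core was also found for 11 other members: Tgfb1, Bmp6, Ltbp1, Ltbp4, Tgfbr1, Bmpr1a, Smad5, Smad6, Ski, Id2 and Id3. No member found to hold the core passed, Tgfbr2 included, and Bmp6 and Ltbp1 were not tested. Neither motif stood in the windows of Tgfb2 and Ltbp2. On both strands, TGANNNNGC was found in 35.3% of the members' promoters and in 35.2% of all 32851 promoters of this length. Its narrower form TGACNNNGC, whose matches are all among those of the first, was in 14.7% and 10.2%. GGCGCC was in 29.4% of the members' promoters, those of 9 members, and in 9.59% of all, and GGCNCC, which includes it, in 79.4% and 49.7%. Ltbp4 had overlapping windows that hold the same GGCGCC site, and each of them is counted. The short Smad element CAGAC was in 41.2% and 42.2%, and the palindrome GTCTAGAC in no member promoter and 0.167% of all. The share of G and C in the members' windows ran from 43.2% to 87.6%. It was not computed for all promoters, so the shares with GGCGCC and GGCNCC are not adjusted for it.

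Among the 8 ligands, Bmp2 rose and Tgfb2 fell. Bmp2, the ligand of bone and vessel formation that signals through Smad1 and Smad5, read -2.98, -4.61 and -4.17 in WT and -1.33, -1.25 and -0.33 in KO. All KO mice were above all WT mice, and the difference was 2.95 ± 0.46 (SE, n = 3 per genotype; adjusted p = 0.0294), or 7.70-fold. Within the first slide, KO 947 was above the WT mice by 2.59 (adjusted p = 0.155 with the block). Bmp2 missed the threshold without WT 2, WT 3, KO 948 or KO 949, with adjusted p-values up to 0.0839. Tgfb2, 1 of the 3 TGF-beta isoforms and the one that needs betaglycan to bind its receptor well, read -2.62, -2.08 and -2.89 in WT and -4.93, -7.89 and -6.26 in KO. It was well above background on all WT arrays and on 1 of 3 KO arrays, so the KO mean rests mostly on signals not well above background. The difference was -3.83 ± 0.69 (adjusted p = 0.0416). Within the first slide it was -2.40 (adjusted p = 0.162 with the block). Tgfb2 passed without KO 947 and missed the threshold when any other array was left out, with adjusted p-values up to 0.133. A second Tgfb2 probe differed by -4.69, and none of the KO arrays had it well above background. It passed when every probe was tested on its own with limma (adjusted p = 0.0312), a test made possible by its WT arrays alone.

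The other ligands did not pass. Inhbb, which encodes the beta B subunit of activins, read -1.89, -1.39 and -3.90 in WT and -5.85, -5.53 and -4.51 in KO. The genotypes did not overlap and WT 3 was the lowest WT mouse (difference -2.90 ± 0.68, adjusted p = 0.0737), with 1 of 3 KO arrays well above background. Tgfb3 read -2.88, -2.81 and -3.14 in WT and -3.41, -4.04 and -3.20 in KO, a narrow gap between the nearest mice (difference -0.60, adjusted p = 0.228). Tgfb1, the isoform that macrophages and platelets are known to make, had overlapping levels of 1.79 to 2.36 in WT and 1.45 to 2.52 in KO (difference -0.04 ± 0.31, adjusted p = 0.953). Bmp4 (difference -0.53) and Inhba, the beta A subunit of activins (difference -0.51), also had overlapping genotypes. Bmp6, an inducer of hepcidin in the liver, was not well above background on any array. Of the 7 tested ligands, 6 had a difference below 0 (5 under median scaling, where Tgfb1 was at 0.17), and the median was -0.53.

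Of the latency proteins and the processing enzyme, Ltbp2 fell. Ltbp2 encodes a microfibril protein of the latent TGF-beta binding protein family that does not itself bind latent TGF-beta. It read 0.23, -0.30 and -1.65 in WT and -3.95, -3.92 and -3.48 in KO, a clear gap between the genotypes, with WT 3 the lowest WT mouse. The difference was -3.21 ± 0.46 (adjusted p = 0.0220), or 9.24-fold, and within the first slide it was -3.38 (adjusted p = 0.104 with the block). Ltbp2 passed without WT 3 (difference -3.74) and without KO 947, and missed the threshold without WT 1, WT 2, KO 948 or KO 949, with adjusted p-values up to 0.0822. Ltbp1, which does tether latent TGF-beta, was well above background on 1 WT array and no KO array and was not tested. Ltbp3 (difference 0.09) and Ltbp4 (0.09) overlapped between genotypes. Bmp1, the procollagen C-proteinase that also cleaves latency proteins and chordin, differed by -0.24 (adjusted p = 0.573) on the probe used. Its other probes differed by -0.72 and -1.55, and the last passed when every probe was tested on its own (adjusted p = 0.0375), so the Bmp1 probes disagree.

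None of the 9 receptors and coreceptors passed with limma, and 1 had an unadjusted p under 0.05. That 1 was Tgfbr2, the type II receptor that binds TGF-beta first. It read 3.50, 3.42 and 3.47 in WT and 4.20, 3.92 and 3.97 in KO. Every KO mouse was above every WT mouse, with a WT range narrower than the gap (difference 0.57 ± 0.14, adjusted p = 0.0904). A second Tgfbr2 probe gave overlapping genotypes and a difference of -0.10, and the first passed under median scaling (adjusted p = 0.0332). Its partner Tgfbr1 did not differ beyond the spread (-0.06 ± 0.20), with levels of 3.69 to 4.06 in WT and 3.54 to 4.11 in KO. The coreceptor betaglycan, Tgfbr3, which presents Tgfb2, read 0.56, 1.01 and 0.08 in WT and 1.01, 0.92 and 1.40 in KO, with overlap (difference 0.56, adjusted p = 0.303). The BMP receptors went in both directions with overlapping genotypes: Bmpr2 at 0.62, Acvr1 at 0.43, Acvrl1 at 0.25, Bmpr1a at -0.54 and the activin receptor Acvr1b at -0.18 (0.03 under median scaling). Acvr1, Acvrl1 and Bmpr2 were below 0 within the first slide. Endoglin, Eng, a coreceptor best known in endothelium, differed by -0.27 (adjusted p = 0.447), and none of 5 tested endothelial markers passed, 0 of them with an unadjusted p under 0.05.

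Among the 4 secreted antagonists and follistatin family members Grem1 fell, and Fst and Fstl1 also had lower means in KO. Grem1 encodes gremlin, which binds Bmp2 and Bmp4 and keeps them from their receptors. It read -2.09, -2.62 and -5.42 in WT and was well above background on all WT arrays, with WT 3 far below the other WT mice. On the KO arrays it read -7.67, -7.96 and -7.75 and was never well above background. Grem1 could therefore be tested through its WT arrays alone, and its p-value rests on KO signals not well above background. KO was at least 5.97-fold lower, counting each KO array at the lowest level well above background there (fitted difference -4.41 ± 0.81, adjusted p = 0.0423). That limit rests on WT 3: it was 12.1-fold without WT 3, 3.82-fold without WT 1 and 4.59-fold without WT 2. Within the first slide Grem1 differed by -4.29 (adjusted p = 0.181 with the block). It passed without WT 3 (difference -5.43) and missed the threshold when any other array was left out, with adjusted p-values up to 0.127. Fstl1, a secreted glycoprotein made largely by mesenchymal cells, read 2.85, 3.09 and 1.72 in WT and 0.93, 1.10 and 0.87 in KO. The genotypes did not overlap and WT 3 was the nearest to KO (difference -1.59 ± 0.35, adjusted p = 0.0655). Without WT 3 the difference was -2.00 (adjusted p = 0.0108). Follistatin, Fst, the activin-binding inhibitor, differed by -0.55 (adjusted p = 0.260) and the related Fstl3 by -0.17, both with overlap. Fstl3 had no stable direction: it was above 0 under median scaling (0.050), under quantile normalization (0.014), within the first slide (0.33) and without WT 2 (0.069) or KO 949 (0.12).

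The lower members Grem1, Ltbp2, Fstl1 and Inhbb shared a pattern over the WT arrays, in which WT 3 was at least 1 below the mean of WT 1 and WT 2, as were Id1 and Id3. These 6 were the members with such a gap, and 1 member, Smad3, was at least 1 above it. WT 3 is the only female among the WT mice, so within WT its pattern and sex cannot be told apart. In the KO female, KO 949, Ltbp2 (-3.48) and Inhbb (-4.51) had their highest KO levels. Fstl1 (0.87), Id1 (2.43) and Id3 (1.37) had their lowest KO levels there, and Grem1 was not well above background. The part of sex in this pattern was not tested. WT 3 also had the lowest summed stromal markers, 2.47 against 4.53 and 4.65 in the other WT arrays. Among the tested stromal markers, Col1a1, Col1a2, Col3a1, Sparc, Pdgfrb and Dcn were each lowest among WT in WT 3. Thy1 was highest there (-0.49 against -1.98 and -1.93), and Cxcl12 lay between the others (-3.04 against -2.76 and -5.00). Tgfb2 was near its other WT values in WT 3. The part of stromal cells in these differences was not tested.

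**Figure D2:**
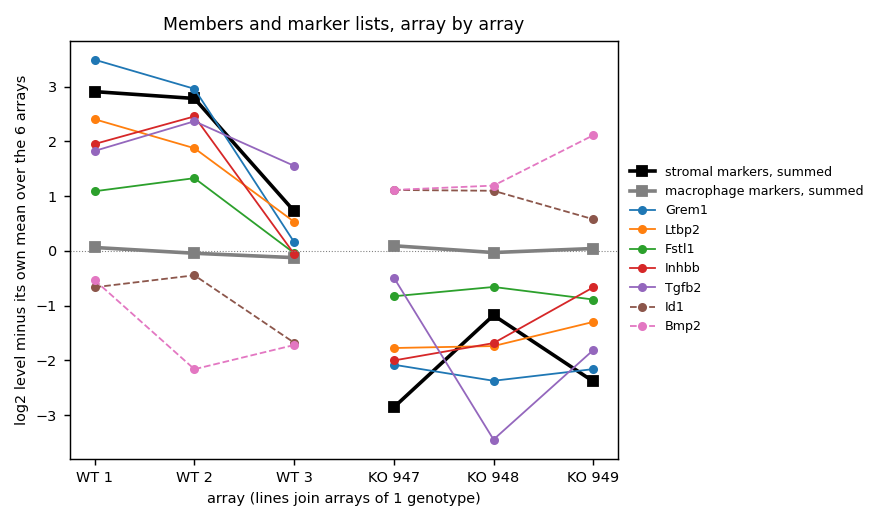
Level on each array minus its own mean over the 6 arrays (log2, vertical axis) for 7 members and for the summed stromal and macrophage markers. The lines join arrays of 1 genotype as a guide and give the replicates no order. The stromal sum, Grem1, Ltbp2, Fstl1 and Inhbb are lower on WT 3 than on the other WT arrays and lower again in KO, Bmp2 and Id1 are higher in KO, and the macrophage sum is nearly flat.

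The Smad proteins that carry the signal did not pass in any case. Of the 5 transducers, 0 passed with limma and 0 had an unadjusted p under 0.05. Smad2 (0.39), Smad4 (0.34), Smad1 (0.23) and Smad5 (0.02) had differences above 0 and Smad3 a difference of -0.06 (0.16 under median scaling), all with overlapping genotypes. Smad3 read -0.31, -0.58 and 0.77 in WT and -0.01, -0.17 and -0.12 in KO, so WT 3 alone stood above the KO mice. Smad4 fell below 0 within the first slide (-0.094) and Smad5 under quantile normalization (-0.063). The inhibitory Smads, which block receptors and the transducers, and the corepressors Ski and Skil likewise gave 0 calls among 4 and 0 at an unadjusted p under 0.05. Smad6 differed by 0.62 (adjusted p = 0.385), Ski by 0.25, Skil by -0.002 and Smad7 by -0.13, of which Skil and Smad7 were above 0 under median scaling (0.21 and 0.089). Smad6 is induced by BMPs and Smad7 by TGF-beta. A second Skil probe differed by -1.36 (adjusted p = 0.334 when every probe was tested on its own).

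Among the 4 induced targets Id1 rose. Id1 encodes an inhibitor of basic helix-loop-helix factors and is a direct target of BMP Smads. It read 1.19, 1.41 and 0.17 in WT and 2.96, 2.95 and 2.43 in KO, above every WT mouse in every KO mouse. The difference was 1.86 ± 0.35 (adjusted p = 0.0435), or 3.63-fold, and within the first slide it was 2.04 (adjusted p = 0.147 with the block). Id1 passed without WT 3, where the difference was 1.49, and missed the threshold when any other array was left out, with adjusted p-values of 0.0640 to 0.136. Its relative Id3 read 1.37, 1.76 and -0.27 in WT and 1.74, 1.86 and 1.37 in KO, with overlap and with WT 3 well below the other mice (difference 0.70, adjusted p = 0.483). Id2 differed by 0.10. Tgfbi, a matrix protein named for its induction by TGF-beta, read 6.48, 6.53 and 6.49 in WT and 6.41, 6.24 and 6.19 in KO. Every KO mouse was below every WT mouse, by a small amount (difference -0.22 ± 0.14, adjusted p = 0.410).

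**Figure D3:**
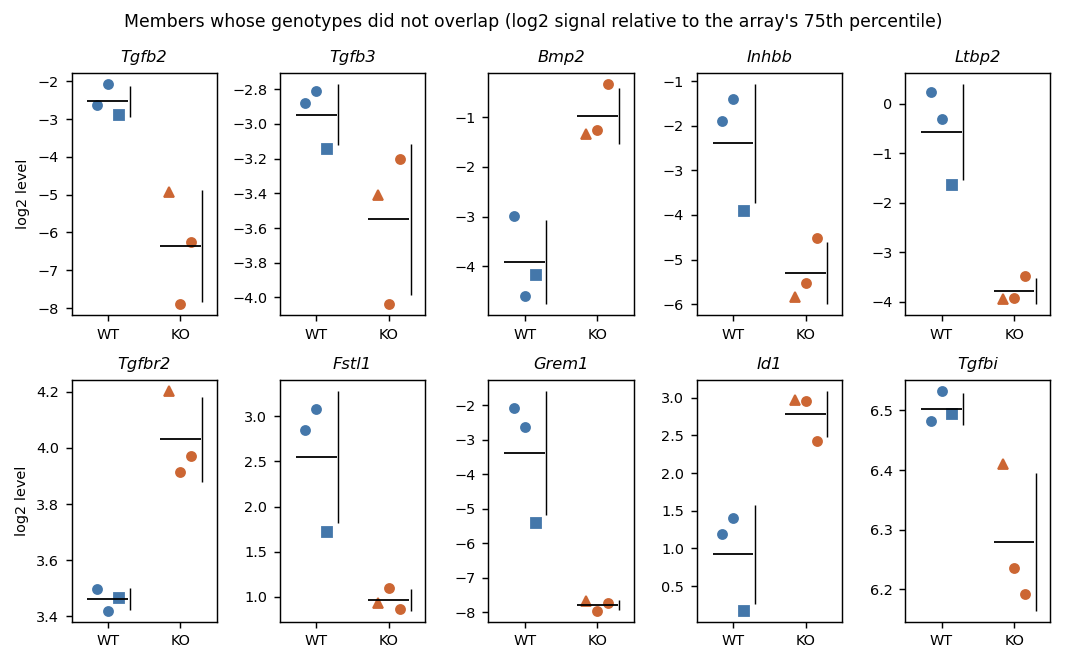
Log2 level on each array (vertical axis, a scale of its own for each gene) of the 10 tested members whose WT and KO ranges were separate. Points are mice (WT 3 as squares, KO 947 as triangles, the others as circles), horizontal lines are means and vertical lines are 1 SD (n = 3). Bmp2, Tgfbr2 and Id1 are higher in KO and the other 7 are lower, and Tgfb3 and Tgfbi have the narrowest gaps.

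A wider list of 116 further genes of the pathway was read in the same way. Of these, 115 had a named probe, 87 were tested and 10 passed (11.5%, against 3.41% of all genes), 4 higher and 6 lower in KO. In 27 of the 87 (31%, near the 26.9% of all genes) the genotypes did not overlap, and the median difference was -0.13. The count fell to 3 without WT 1, without WT 2 or without KO 948 and to 4 without KO 949, was 12 without WT 3 and 10 without KO 947, and was 2 with the slide block. Of these, the count higher in KO was 0 without WT 1, WT 2, KO 948 or KO 949, 0 with the slide block, 0 in males (against 10 lower) and 1 without WT 3. Among 16 tested ligands, Gdf15, a stress-induced circulating member of the family, read 2.19, 2.48 and 2.48 in WT and 3.22, 3.83 and 3.97 in KO (difference 1.29, adjusted p = 0.0400). Lefty1, an inhibitor of Nodal, read 0.09, -0.36 and -0.76 in WT and 1.08, 0.90 and 0.93 in KO (difference 1.31, adjusted p = 0.0393). Both rose and were above every WT mouse in every KO mouse. Gdf15 also passed without KO 947 and with no other array left out, and Lefty1 missed the threshold whichever array was left out.

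Lrrc32, which encodes GARP, a membrane anchor for latent TGF-beta, fell among 11 tested activators and processing enzymes. It read 2.03, 2.12 and 2.02 in WT and 0.53, 0.30 and 0.48 in KO. The spread within each genotype was small beside the difference of -1.62 ± 0.14 (adjusted p = 0.00930), and WT 3 was level with the other WT mice. Lrrc32, Ccn2 and Col1a2 passed whichever 1 array was left out. Nrros, the related anchor of myeloid cells, differed by 0.06 with overlapping genotypes. Of the 6 other receptors tested, none passed with limma and 1 had an unadjusted p under 0.05. Among 11 tested antagonists, Nbl1, a secreted BMP inhibitor, fell and read -0.04, -0.26 and -0.49 in WT and -1.88, -1.47 and -1.36 in KO (difference -1.30, adjusted p = 0.0287), and passed without WT 3 or KO 947 and with no other array left out.

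Of 25 tested intracellular regulators, Dab2, an endocytic adaptor that links TGF-beta receptors to Smads, rose. It read 2.19, 2.32 and 2.19 in WT and 3.20, 3.25 and 3.40 in KO (difference 1.05 ± 0.14, adjusted p = 0.0171), and passed without KO 947 and with no other array left out. Of 18 tested induced targets, 3 fell and 1 rose. Ccn2, the connective tissue growth factor gene, read 2.94, 3.00 and 0.44 in WT and was never well above background in KO, where it was at least 271-fold lower (adjusted p = 0.00930). That limit was 487-fold without WT 3, 205-fold without WT 1 and 201-fold without WT 2. Like Grem1, Ccn2 could be tested through its WT arrays alone. The type I collagen genes Col1a1 (difference -5.62, adjusted p = 0.0191) and Col1a2 (difference -5.55, adjusted p = 0.00930) also fell. Col1a1 was well above background on 2 of 3 KO arrays and missed the threshold without WT 1, WT 2 or KO 948. Both collagen genes are also on the stromal marker list, and Ccn2, Col1a1 and Col1a2 were all lowest among WT in WT 3, as was the stromal sum. The fibronectin gene Fn1 rose and read 4.61, 4.35 and 3.53 in WT and 5.81, 5.88 and 6.15 in KO (difference 1.78, adjusted p = 0.0318), and passed without WT 3 or KO 947 and with no other array left out. Fn1, Col1a1 and Col1a2 are known targets of TGF-beta and went in opposite directions, Fn1 up and the collagens down.

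**Figure D4:**
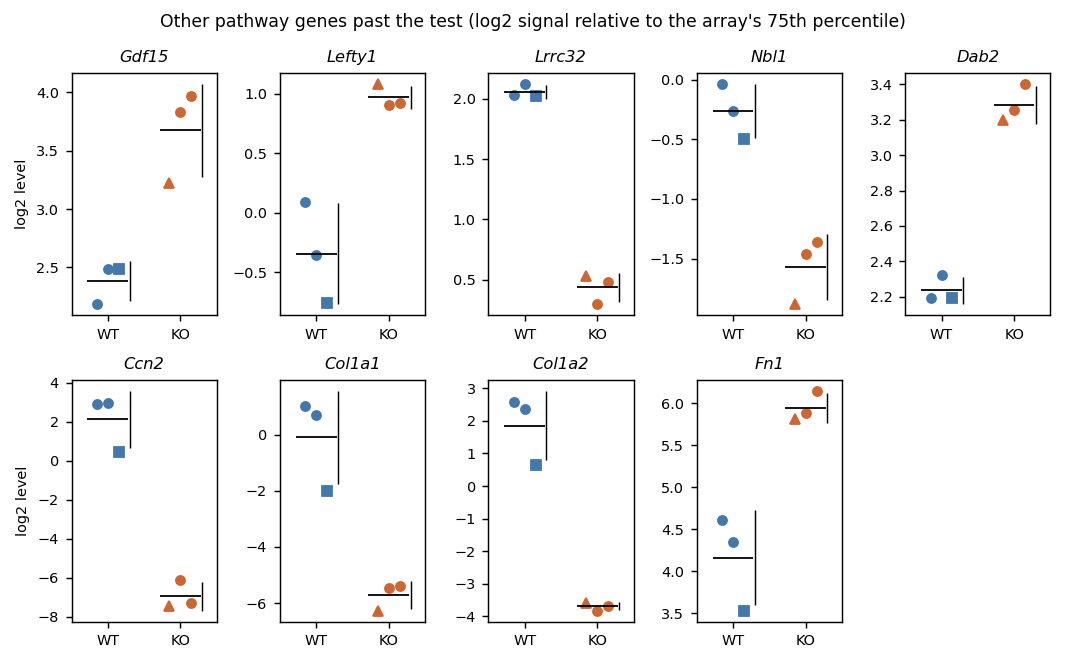
Log2 level on each array (vertical axis, a scale of its own for each gene) of 9 further pathway genes that passed the test. Points are mice (WT 3 as squares, KO 947 as triangles, the others as circles), horizontal lines are means and vertical lines are 1 SD (n = 3). Gdf15, Lefty1, Dab2 and Fn1 are higher in KO. The WT mice lie close together for Lrrc32, while WT 3 lies apart for Ccn2 and the collagens.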

How the data were processed

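RNA of 6 cultures, 1 per mouse, was amplified, labelled with 1 dye and hybridised, per the labels' protocols. Spot intensity was extracted by the authors with Feature Extraction of Agilent. Per the file headers this was version 10.7.3.1, while the submitters' processing notes name version 9.1. The processed intensity in the deposited files is background-subtracted within each array. A deposited table of log2 values for 3215 probes served as an alternative only, since the genotypes are separate in all of them.

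Here the log2 processed signal was reduced by the log2 of the array's 75th percentile, outlier spots were dropped and spots of 1 probe averaged. Probes were named by accession (26413 of 55681 matched). Genes needed a probe well above background on at least 3 arrays. Among the genes named here, Grem1, Ccn2, Fbn1 and the markers Mcpt8 and Cxcl12 met this through WT alone. Their p-values therefore rest on KO signals that were not well above background. Genotypes were compared with limma 3.58.1 in R 4.3.3, with no covariate. A bound takes each dim array at the higher of its measured value and the lowest level well above background there (-6.16 to -5.68). The fit was tested on simulated data. All members are reported, those past the test or with separate genotypes array by array, and 9 of the 10 further pathway genes past the test are named; the other is not reported here. The members and lists were chosen with earlier results of these data known. The number of arrays limits the precision.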

Additional observations from a re-analysis of the deposited data

How the results depend on the processing

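No paired analysis was possible because the genotypes share no replicate numbers. The 5 members that passed kept their sign under every alternative tried for them. Their WT and KO ranges were separate, so fits that leave out or reweight arrays could not have reversed the sign. Leaving aside the deposited table, whose probes all separate the genotypes, Ltbp2 passed under 15 of 21 alternatives, Bmp2 under 12 of 21, Id1 under 10 of 21, Grem1 under 8 of 20 and Tgfb2 under 7 of 20. The number of members that passed was 2 under quantile normalization, 2 with no filter on dim probes, 0 with the slide as a fixed block, 1 with it as a random block, 0 within the first slide, 8 with a trend and robust fit, 11 with array weights, 8 at a threshold of 0.1 and 0 to 5 with 1 array left out. Over all genes the count of 537 became 343 under quantile normalization, 275 with no filter, 84, 255 and 24 under the 3 slide settings in the same order, 305 with sex as a covariate, 182 in males, 810 with a trend and robust fit, 3100 with array weights, 1151 at a threshold of 0.1 and 77 to 900 with 1 array left out. For the further pathway genes the count of 10 became 5 with no filter, 2, 6 and 0 under the slide settings, 28 with array weights and 3 to 12 with 1 array left out. With a probe needed well above background on all 6 arrays, 4 of 34 members and 7 of 78 further pathway genes passed. Tgfb2, Inhbb, Grem1, Ccn2, Col1a1 and Fbn1 were then not tested. Testing every probe on its own, chosen after seeing the data, gave 2 members on the probes used here, Bmp2 and Ltbp2. In that limma fit a probe not used here also passed for Tgfb2 (adjusted p = 0.0312) and for Bmp1 (adjusted p = 0.0375). Normexp used median spot signals. The cause of these changes was not tested, except that leaving out arrays or a slide leaves fewer mice.

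Signs changed for members that did not pass, among them Bmpr2, Smad6, Inhba and Acvr1, whose main differences were 0.62, 0.62, -0.51 and 0.43. With array weights the log2 difference was 0.33 for Acvr1b, 0.034 for Bmp1, -0.16 for Ltbp3, 0.15 for Skil, -0.023 for Smad1, -0.21 for Smad5 and 0.47 for Tgfb1. In males it was -0.053 for Acvr1, -0.038 for Acvrl1, -0.20 for Id2, 0.072 for Skil, 0.35 for Smad3 and 0.20 for Tgfb1. The mean of a gene's probes gave -0.092 for Ltbp4, and normexp gave -0.012 for Ltbp3 and -0.030 for Smad5. With the slide as a fixed block, and so within the first slide, it was -0.071 for Acvr1, -0.14 for Acvrl1, -0.12 for Bmpr2, 0.33 for Fstl3, -0.010 for Id2, 0.26 for Inhba, -0.25 for Ski, 0.029 for Smad3, -0.094 for Smad4 and -0.13 for Smad6. With the slide as a random block Fstl3 was at 4e-04. Quantile normalization gave 0.045 for Acvr1b, 0.014 for Fstl3, -0.063 for Smad5 and 0.0027 for Smad7. Median scaling gave 0.033 for Acvr1b, 0.050 for Fstl3, 0.21 for Skil, 0.16 for Smad3, 0.089 for Smad7, 0.17 for Tgfb1 and 0.16 for Tgfbr1. With 1 array left out the range crossed 0 for Tgfb1 (-0.34 to 0.20), Ltbp3 (-0.056 to 0.23), Ltbp4 (-0.019 to 0.24), Tgfbr1 (-0.19 to 0.091), Acvr1b (-0.50 to 0.16), Fstl3 (-0.41 to 0.12), Smad1 (-0.030 to 0.39), Smad3 (-0.33 to 0.34), Smad5 (-0.18 to 0.16), Smad7 (-0.51 to 0.21), Skil (-0.11 to 0.12) and Id2 (-0.18 to 0.26).

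Signal over background limits what can be said of Tgfb2, Inhbb, Grem1, Ccn2, Col1a1 and Fbn1 in KO, of Ltbp1 and of Bmp6.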

Other observations

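Among the further induced targets, 10 of the 18 tested had separate WT and KO ranges, 8 of them lower in KO, beside 26.9% of all genes. Some that did not pass are named here after their values were seen. The smooth muscle genes Tagln (difference -2.28, adjusted p = 0.0805 with limma) and Acta2 (difference -1.43, adjusted p = 0.121) had WT 3 as their lowest WT mouse. Fbn1, the microfibril protein that binds latency proteins, read -1.93, -1.73 and -5.62 in WT and was never well above background in KO, where it was at least 7.27-fold lower (adjusted p = 0.0568). That limit was 17.5-fold without WT 3, 4.85-fold without WT 1 and 4.53-fold without WT 2. The part of stromal cells, whose summed markers were also lowest among WT in WT 3, was not tested. Klf10, an early TGF-beta target, went the other way and read 2.83, 2.81 and 2.47 in WT and 2.90, 3.17 and 3.42 in KO (difference 0.46, adjusted p = 0.247).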
